A study of Mus musculus with 16 samples.

Results

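The adipocyte hormones and lipid droplet genes followed here are Adipoq, Lep, Retn, Cfd, Car3, Cidec, Plin1, Fabp4, Lpl and Acvr1c. They are the rows with these 10 gene names among the 48440 genes of a count table of mouse ear skin. RNA was sequenced from 16 libraries of ear skin, from B6 mice, in 4 groups of 4. HFD_PMA mice ate a high-fat diet for 8 weeks and received PMA, an irritant phorbol ester and protein kinase C activator, at 200 ng per ear, with ears collected 24 h later. ND_PMA mice ate a normal diet and received the same PMA dose. HFD_cont mice ate the high-fat diet and ND_cont mice the normal diet, and the ears of both were not treated. No group carried a transgene or a mutant allele, per the labels, and the sources used here do not give the age or sex of the mice or say whether untreated ears received the solvent.

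White adipocytes of the skin form a layer in the dermis, and they store triglyceride in a single large lipid droplet. They take up fatty acids released from circulating lipoproteins, coat the droplet with proteins that gate its breakdown, and secrete hormones and complement proteins. Perilipin 1 and CIDEC sit on the droplet, lipoprotein lipase and FABP4 handle incoming fatty acids, and adiponectin, leptin, resistin and adipsin are released into blood.

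All 10 genes had counts in every library and all 10 passed the low-count filter, with 17604 genes tested. Library totals lay between 7739487 and 15571389 counts, and mitochondrial genes held 1.35% to 3.06% of counts. The library IDs in the labels begin with RHS for all 4 ND_cont libraries and for HFD_cont replicate 1, and with RHP for the other 11. The sources used here do not say what these prefixes stand for. ND_PMA and ND_cont differ wholly in ID series, so the PMA effect in ND mice and the series cannot be told apart by comparing these groups alone, whereas all 8 PMA libraries are RHP. Every pair of libraries within a group differed by more than sampling noise. Nothing in the labels says that replicates were handled apart, so p-values measure the spread between these 16 libraries. Levels are given as CPM, reads per 1e+06 counted reads, scaled by TMM factors, in replicates 1 to 4 of a group, and changes as log2 fold changes ± SE from edgeR's quasi-likelihood test with Benjamini-Hochberg adjustment over all genes tested. A gene was called below an adjusted p of 0.05.

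Promoter sequences are shown for Lep, Plin1 and Adipoq, a hormone, a droplet coat gene and the gene whose PMA effect held under every setting tried. RefSeq windows on GRCm38.p6, running from 250 bases before to 50 after an annotated start, were found for 7 of the 10 genes. They cover chr6:29059971-29060270 on the plus strand for Lep, chr7:79732727-79733026 on the minus strand for Plin1 and chr16:23146286-23146585 on the plus strand for Adipoq, and each is printed 5′ to 3′ in the direction of the gene. Capitals mark the C/EBP core TTGCNNAA in Lep and Plin1, and the CCAAT box, searched as CCAAT on both strands, in Adipoq.
Lep: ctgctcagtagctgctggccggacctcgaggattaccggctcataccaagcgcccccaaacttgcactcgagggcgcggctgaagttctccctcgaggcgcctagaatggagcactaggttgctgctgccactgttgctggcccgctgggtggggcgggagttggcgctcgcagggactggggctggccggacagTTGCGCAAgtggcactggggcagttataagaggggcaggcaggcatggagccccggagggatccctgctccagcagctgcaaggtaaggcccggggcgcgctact
Plin1: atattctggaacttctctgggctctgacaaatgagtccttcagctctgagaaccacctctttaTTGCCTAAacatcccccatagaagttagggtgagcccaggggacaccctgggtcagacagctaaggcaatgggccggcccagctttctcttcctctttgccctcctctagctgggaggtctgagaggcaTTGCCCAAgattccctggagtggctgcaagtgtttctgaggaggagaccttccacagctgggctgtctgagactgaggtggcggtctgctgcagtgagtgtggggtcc
Adipoq: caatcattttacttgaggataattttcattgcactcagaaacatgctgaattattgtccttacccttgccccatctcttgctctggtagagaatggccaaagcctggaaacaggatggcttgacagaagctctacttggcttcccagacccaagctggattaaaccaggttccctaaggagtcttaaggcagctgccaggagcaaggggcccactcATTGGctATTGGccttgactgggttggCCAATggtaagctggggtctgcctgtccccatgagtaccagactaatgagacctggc
Lep held 1 C/EBP core, at -55 to -48 from the start. Plin1 held 2, at -187 to -180 and at -58 to -51, and a second window of Cidec held 1, at -198 to -191. C/EBP proteins are transcription factors of adipocyte differentiation. The core was present in 10.8% of 32851 mouse windows of the same length and in 3 of the 9 windows of the members, from 3 of the 7 genes. Adipoq held 3 CCAAT matches, within the 34 bases before its start. CCAAT was present in 37.4% of all windows and in 1 of the 9 windows of the members. The GC box GGGCGG was present in 35.7% of all windows and in 2 of those 9. The PPAR half-site AGGTCA, present in 16.3% of all windows, and TATAAA, present in 13.6%, were in 0 windows of the members. These matches describe letters in the windows and say nothing of factor binding in these ears.

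The first question was how these genes differed after PMA. In HFD mice 5 of the 10 fell after PMA, against 4.6% of all genes tested that fell, and these were Adipoq, Cfd, Cidec, Plin1 and Lpl. In ND mice 8 of the 10 fell after PMA, against 3.99% of all genes. Those were Adipoq, Lep, Retn, Car3, Cidec, Plin1, Lpl and Acvr1c, while Cfd and Fabp4 had log2 values of -0.65 and -0.59 that did not pass. All 10 log2 fold changes were negative in both diets, with a median of -0.91 in HFD mice and -1.04 in ND mice, against medians of -0.02 and 0.00 over all genes. Members called higher with PMA numbered 0, against 7.34% of all genes in HFD mice and 8.96% in ND mice. At such shares 0 of 10 does not set the members apart. In 3 of the 10, Adipoq, Cidec and Lpl, every HFD_PMA library lay below every HFD_cont library, against 7.93% of all genes. In 7 of the 10 genes every ND_PMA library lay below every ND_cont library, against 6.25% of all genes. CPM is a share of counted reads. In bulk skin, fewer adipocytes, less of these RNAs per adipocyte and more RNA from other cells thus cannot be told apart. In ND mice the difference in ID series cannot be told apart from PMA either.

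The second question was how they differed with diet. In untreated ears Car3 and Cidec were lower in HFD than in ND mice, 2 of 10 genes, against 1.06% of all genes that were lower. All 10 log2 values were negative there, with a median of -0.68. After PMA, Cfd was lower in HFD than in ND mice, 1 of 10 genes, against 1.26% of all genes. The median of the 10 was -0.37 there, 8 values were negative, and those of Lep and Acvr1c were positive and did not pass. This count of signs rests on single libraries. Without HFD_PMA replicate 3 the Acvr1c value was -0.05, against 0.78 with it, and that of Lep was 0.22, against 0.61. Without ND_PMA replicate 2 the values of Adipoq and Fabp4 were 0.02 and 0.05. Members called higher in HFD numbered 0, against 0.943% of all genes after PMA and 2.87% in untreated ears, which does not set the members apart. Every HFD_PMA library lay below every ND_PMA library for Cfd and Car3, 2 of 10 genes against 4.71% of all genes. Every HFD_cont library lay below every ND_cont library for Retn, Cfd, Cidec and Acvr1c, 4 of 10 genes against 5.46% of all genes. Markers of some other cell types were lower in HFD as well. After PMA these were 4 of 4 tested cartilage genes (median log2 -0.97), 3 of 5 fibroblast markers (-0.90) and 2 of 6 macrophage markers (-0.67). In untreated ears they were 4 of 5 fibroblast markers (-0.70) and 1 of 6 macrophage markers (-0.56), and the cartilage median was -0.66. The 7 endothelial markers had diet medians of -0.66 after PMA and -0.44 in untreated ears. Those of the 10 skeletal muscle markers were -0.58 and -0.03. Keratinocyte markers ran the other way, with 4 of 5 higher in HFD in untreated ears (median log2 0.52) and 1 of 5 after PMA (0.33). Of 4 tested neutrophil markers, 1 was higher in HFD in untreated ears (list median -0.67) and 0 after PMA (0.41). The part of all these markers in the members' diet values was not tested.

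**Figure D1:**
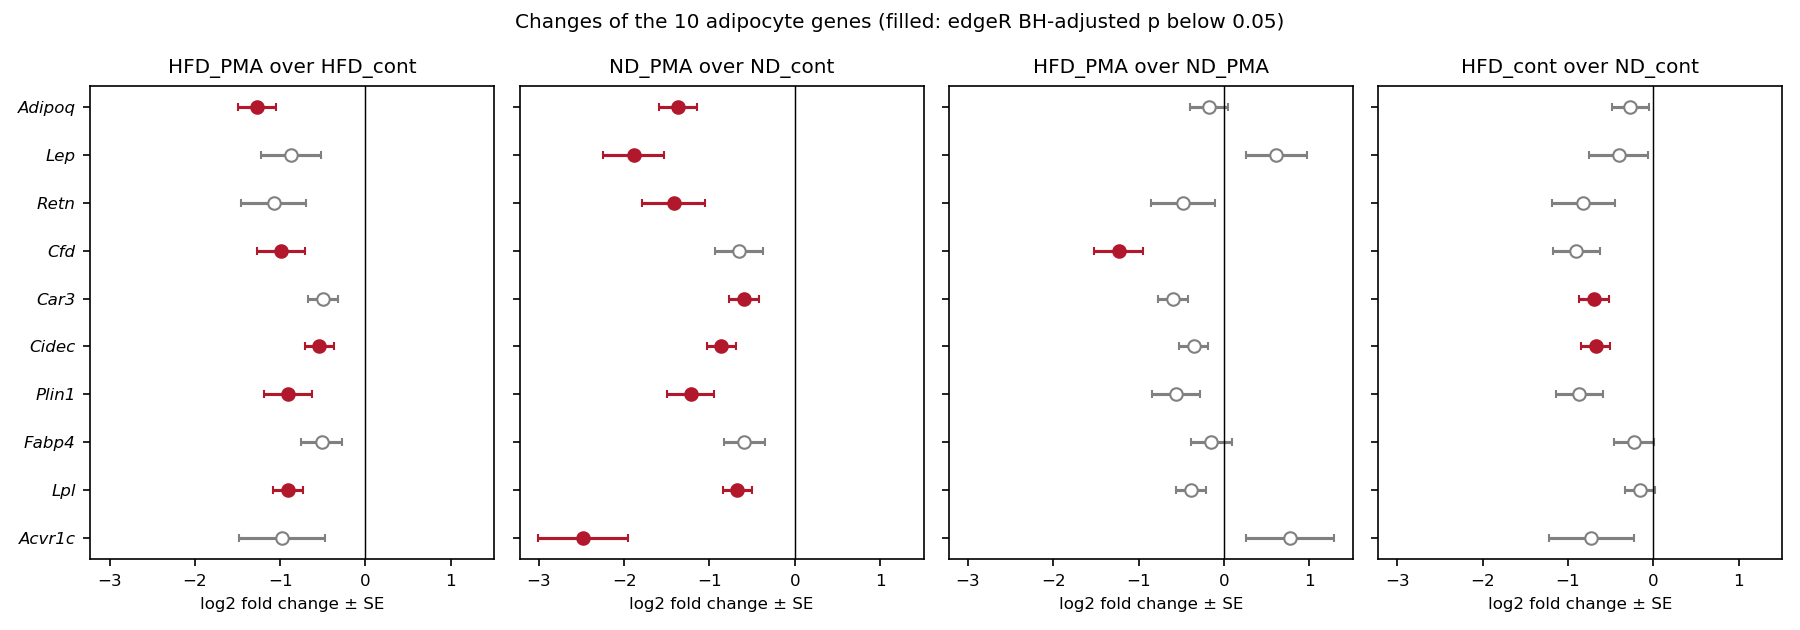
Log2 fold change ± SE of the 10 genes in 4 panels, with PMA over untreated on the left and HFD over ND on the right; filled points passed an adjusted p of 0.05. Filled points number 5 and 8 in the PMA panels of HFD and ND mice, and 1 and 2 in the diet panels of PMA-treated and untreated ears.

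Adipoq encodes adiponectin, an insulin-sensitizing hormone made almost only by adipocytes (chr16:23146536-23158028, plus strand, GRCm38). Its level was 17.6, 23.5, 31.4 and 25.3 CPM in HFD_PMA ears and 31.3, 35.6, 24.4 and 19.1 CPM in ND_PMA ears, against 47.6, 76.6, 60.7 and 52.1 CPM in HFD_cont ears and 69.1, 92.4, 73.5 and 50.5 CPM in ND_cont ears. No PMA library reached the lowest untreated library, while the diets overlapped in both treatments. After PMA it was 2.42-fold lower in HFD mice, with a log2 value of -1.28 ± 0.22 (adjusted p = 0.000793). It was 2.58-fold lower in ND mice, with -1.37 ± 0.22 (adjusted p = 0.000285). The diet effect was -0.18 ± 0.22 after PMA and -0.27 ± 0.22 in untreated ears, neither of which passed.

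Lep encodes leptin, the hormone that reports fat stores to the brain (chr6:29060220-29073877, plus strand). It stood at 12.5, 8.82, 32.2 and 19.4 CPM in HFD_PMA ears and at 14.0, 19.8, 5.20 and 8.43 CPM in ND_PMA ears, against 29.8, 36.6, 26.9 and 40.2 CPM in HFD_cont ears and 40.1, 49.6, 45.9 and 41.0 CPM in ND_cont ears. HFD_PMA replicate 3 was higher than 2 of the HFD_cont libraries, while the 4 ND_PMA libraries all lay below the ND_cont ones. In HFD mice the PMA effect was a log2 value of -0.87 ± 0.35 (adjusted p = 0.122), and without HFD_PMA replicate 3 it was -1.31 (adjusted p = 0.0195). Lep was 3.70-fold lower in ND_PMA than in ND_cont ears, which also differ in ID series, with -1.89 ± 0.36 (adjusted p = 0.0012). That call was lost with the series as a term in the fit.

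Retn encodes resistin, an adipocyte hormone in mice that opposes insulin action (chr8:3655770-3660110, plus strand). It was low, with 9 to 113 counts per library. Its level was 4.33, 1.99, 2.58 and 1.13 CPM in HFD_PMA ears and 2.90, 3.02, 2.96 and 5.24 CPM in ND_PMA ears, against 6.30, 5.95, 5.81 and 3.26 CPM in HFD_cont ears and 8.64, 8.42, 10.9 and 9.76 CPM in ND_cont ears. The 4 ND_cont libraries were above all other libraries. The PMA effect in HFD mice was a log2 value of -1.08 ± 0.38 (adjusted p = 0.0696), and without HFD_PMA replicate 1 it was -1.47 (adjusted p = 0.0211). Retn was 2.67-fold lower in ND_PMA than in ND_cont ears, which also differ in ID series, with -1.42 ± 0.37 (adjusted p = 0.0142). That call was lost with the series as a term in the fit.

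Cfd encodes adipsin, also called factor D, the serine protease that starts the alternative pathway of complement (chr10:79890853-79892655, plus strand). It measured 54.5, 32.8, 55.8 and 43.1 CPM in HFD_PMA ears and 123.6, 172.7, 74.6 and 67.1 CPM in ND_PMA ears, against 104.3, 130.4, 84.8 and 49.7 CPM in HFD_cont ears and 153.3, 171.6, 211.8 and 152.7 CPM in ND_cont ears. Every HFD library was below every ND library within each treatment. In PMA-treated ears it was 2.35-fold lower in HFD than in ND mice, with a log2 value of -1.23 ± 0.28 (adjusted p = 0.0264). In untreated ears the diet effect was -0.90 ± 0.28 (adjusted p = 0.0806). After PMA it was lower in HFD mice, with a log2 value of -0.99 ± 0.28 (adjusted p = 0.0266), and the value in ND mice was -0.65 ± 0.28 (adjusted p = 0.139). Without ND_PMA replicate 2, the highest of its group, the value in ND mice was -0.999 and passed (adjusted p = 0.0221). The diet call in PMA-treated ears was lost without HFD_PMA replicate 2 (adjusted p = 0.114) or 4 (0.0841), and without ND_PMA replicate 1 (0.071) or 2 (0.115).

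**Figure D2:**
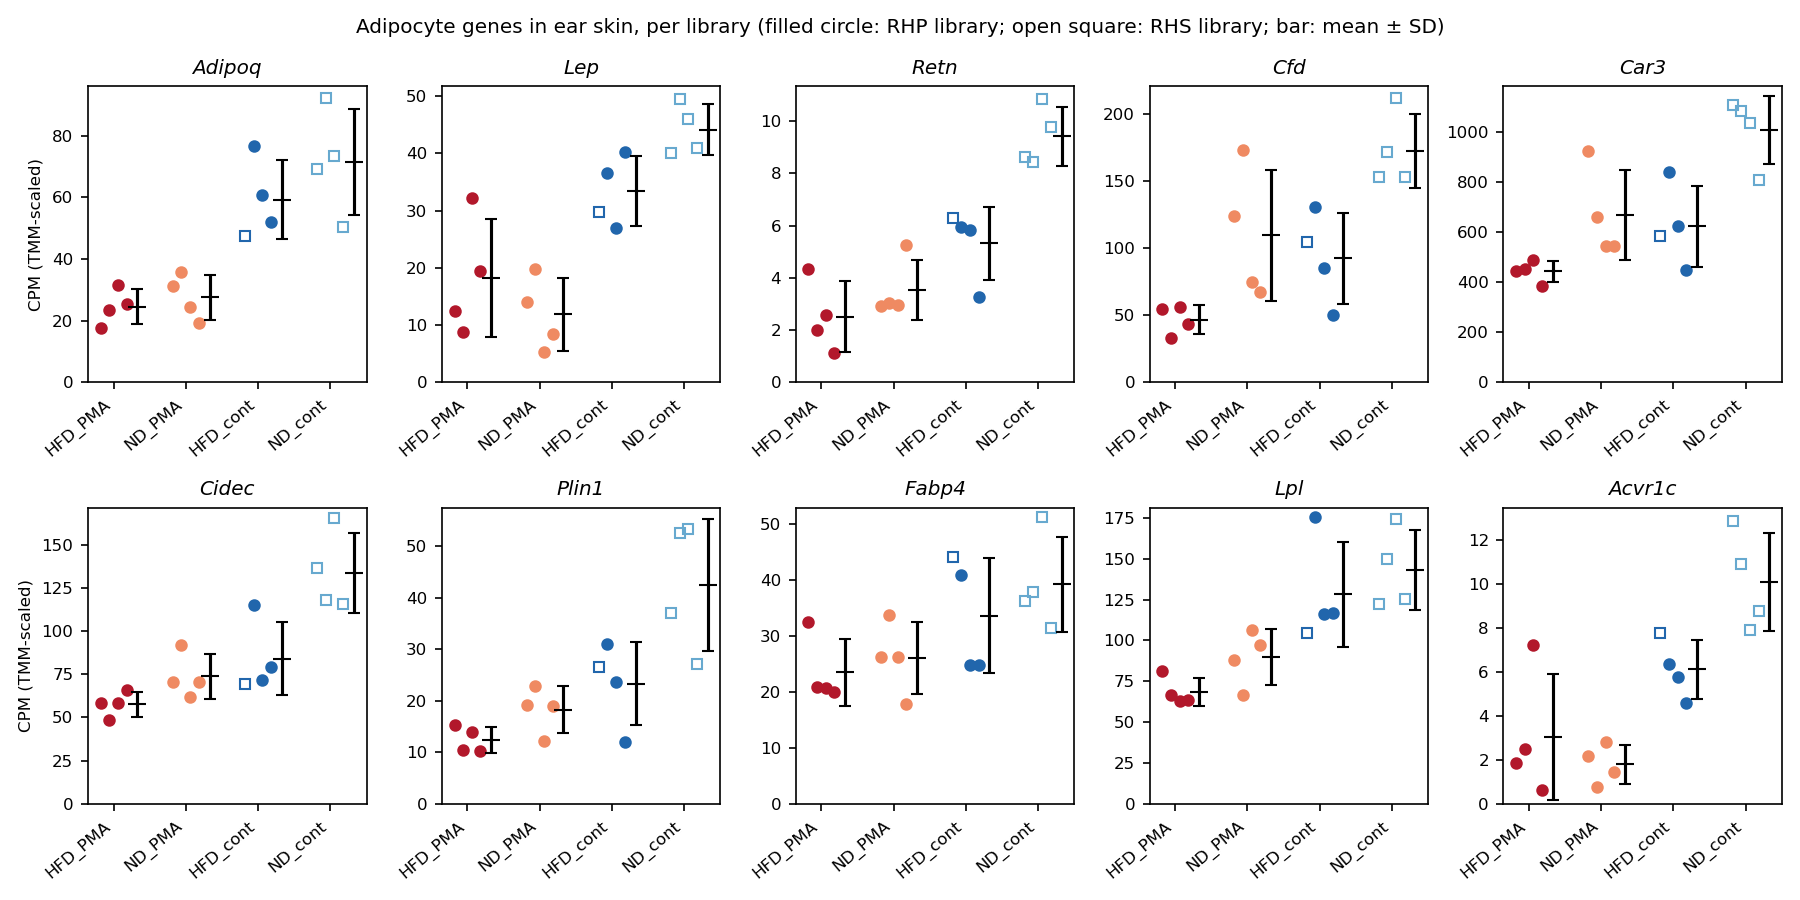
Level of each of the 10 genes in CPM for the 16 libraries, with 4 points per group, and the mean ± SD as a bar; filled circles are RHP and open squares RHS libraries. For Adipoq all 8 PMA libraries lie between 17.6 and 35.6 CPM and all 8 untreated ones between 47.6 and 92.4 CPM, whereas for Fabp4 the groups overlap.

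Plin1 encodes perilipin 1, the protein on the droplet surface that restrains lipases until adrenergic signals arrive (chr7:79720218-79732903, minus strand). It had 15.2, 10.3, 13.9 and 10.2 CPM in HFD_PMA ears and 19.1, 22.9, 12.1 and 19.0 CPM in ND_PMA ears, against 26.6, 31.0, 23.7 and 12.1 CPM in HFD_cont ears and 37.0, 52.5, 53.4 and 27 CPM in ND_cont ears. HFD_cont replicate 4 fell within the range of the HFD_PMA libraries, and ND_PMA and ND_cont did not overlap. With PMA it fell 1.88-fold in HFD mice, with a log2 value of -0.91 ± 0.28 (adjusted p = 0.0377). In ND mice it was 2.33-fold lower, with -1.22 ± 0.28 (adjusted p = 0.00516), a call lost with the ID series as a term in the fit. The diet effect in untreated ears was -0.86 ± 0.27 (adjusted p = 0.0878).

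Cidec encodes a droplet protein that fuses small droplets into larger ones, known as FSP27 in mice (chr6:113424634-113435760, minus strand). Levels were 58.3, 48.3, 58.3 and 65.7 CPM in HFD_PMA ears and 70.6, 92.1, 61.8 and 70.3 CPM in ND_PMA ears, against 69.4, 114.9, 71.6 and 79.4 CPM in HFD_cont ears and 136.5, 117.8, 165.7 and 115.5 CPM in ND_cont ears. The ND_cont libraries were above all others. Cidec was lower after PMA in both diets, with log2 values of -0.54 ± 0.17 in HFD mice (adjusted p = 0.043) and -0.86 ± 0.17 in ND mice (adjusted p = 0.0018). In untreated ears it was 1.60-fold lower in HFD than in ND mice, with -0.67 ± 0.17 (adjusted p = 0.0292), and after PMA the diet value was -0.36 ± 0.17 (adjusted p = 0.323). With the ID series as a term, the PMA call in ND mice and the diet call in untreated ears were lost.

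Lpl encodes lipoprotein lipase, which frees fatty acids from triglyceride-rich lipoproteins and is also made by muscle and macrophages (chr8:68880491-68907448, plus strand). It had 81.0, 66.3, 63.2 and 63.3 CPM in HFD_PMA ears and 87.8, 66.8, 106.6 and 97.3 CPM in ND_PMA ears, against 104.4, 175.6, 116.4 and 116.5 CPM in HFD_cont ears and 122.2, 149.9, 174.4 and 125.1 CPM in ND_cont ears. PMA and untreated libraries did not overlap within either diet. Lpl fell with PMA 1.87-fold in HFD mice, with a log2 value of -0.91 ± 0.17 (adjusted p = 0.0016). In ND mice it was 1.60-fold lower, with -0.67 ± 0.17 (adjusted p = 0.0116), a call lost with the ID series as a term in the fit.

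Fabp4 encodes a fatty acid carrier of adipocytes that capillary endothelium and macrophages also make (chr3:10204088-10208576, minus strand). It stood at 32.4, 20.8, 20.7 and 19.9 CPM in HFD_PMA ears and at 26.2, 33.7, 26.2 and 17.9 CPM in ND_PMA ears, against 44.0, 40.8, 24.8 and 24.8 CPM in HFD_cont ears and 36.2, 37.8, 51.2 and 31.4 CPM in ND_cont ears. The groups overlapped in every comparison, and Fabp4 passed in none with all 16 libraries. Its PMA effect was -0.51 ± 0.24 in HFD mice (adjusted p = 0.193) and -0.59 ± 0.24 in ND mice (adjusted p = 0.119). Without ND_PMA replicate 2 the value in ND mice was -0.78 (adjusted p = 0.0499), and with the library ID series as a term in the fit it was -0.044.

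Car3 encodes carbonic anhydrase III, a cytosolic enzyme abundant in adipocytes and in slow skeletal muscle (chr3:14863512-14872523, plus strand). It had 444.7, 451.0, 490.4 and 386.2 CPM in HFD_PMA ears and 924.5, 661.4, 544.5 and 546.6 CPM in ND_PMA ears, against 585.4, 839.2, 625.4 and 447.5 CPM in HFD_cont ears and 1109.4, 1083.7, 1038.0 and 810.5 CPM in ND_cont ears. The HFD_PMA libraries were all below the ND_PMA ones, and HFD_cont and ND_cont overlapped through HFD_cont replicate 2. In untreated ears Car3 was 1.62-fold lower in HFD than in ND mice, with a log2 value of -0.69 ± 0.18 (adjusted p = 0.0315). After PMA the diet value was -0.59 ± 0.18 (adjusted p = 0.0851). After PMA it was lower in ND mice, with -0.59 ± 0.18 (adjusted p = 0.0304), and the value in HFD mice was -0.49 ± 0.18 (adjusted p = 0.0765). With the ID series as a term, the PMA call in ND mice and the diet call in untreated ears were lost. Summed CPM of 10 skeletal muscle markers was 4013 to 4938 in HFD_PMA and 4494 to 10322 in ND_PMA ears, against 3738 to 8662 in HFD_cont and 5096 to 13608 in ND_cont ears. Of these 10 markers, 4 fell with PMA in HFD mice, and the list median was -0.79 there and -0.33 in ND mice. The list's diet medians were -0.58 after PMA and -0.03 in untreated ears, with 0 markers called. Their part in the Car3 values was not tested.

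Acvr1c encodes ALK7, a type I receptor of the TGF-beta family that restrains lipolysis in adipocytes (chr2:58267453-58357895, minus strand). It rested on 5 to 115 counts per library, and it shares exon bases with Gm13544 on the opposite strand, whose reads cannot be told apart without strand information. Its level was 1.83, 2.46, 7.20 and 0.627 CPM in HFD_PMA ears and 2.16, 0.772, 2.82 and 1.44 CPM in ND_PMA ears, against 7.78, 6.34, 5.74 and 4.56 CPM in HFD_cont ears and 12.8, 10.9, 7.88 and 8.75 CPM in ND_cont ears. HFD_PMA replicate 3, which was also highest among HFD_PMA libraries for Lep, was within the HFD_cont range. The PMA effect in HFD mice was a log2 value of -0.98 ± 0.51 (adjusted p = 0.245), and without HFD_PMA replicate 3 it was -1.86 (adjusted p = 0.0159). Acvr1c was 5.59-fold lower in ND_PMA than in ND_cont ears, which also differ in ID series, with -2.48 ± 0.53 (adjusted p = 0.00313). That call was lost with the series as a term in the fit.

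Whether the PMA effect differed between the diets was tested by the interaction, HFD effect minus ND effect. edgeR called 0 of the 10 genes, against 0.00568% of all genes, with 1 of 10 at an unadjusted p below 0.05, and DESeq2 called 0. The difference was 1.5 ± 0.72 for Acvr1c (unadjusted p = 0.0495) and 1.02 ± 0.49 for Lep (unadjusted p = 0.0522), with an adjusted p of 0.999 for each. Without HFD_PMA replicate 3 these differences were 0.65 and 0.61. A call in a single diet, such as that of Lep, is therefore not shown to differ between the diets.

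The ID series touches every result that uses untreated ears. With the series as a term in the fit, 1 of the 10 genes was called for PMA in ND mice, Adipoq at -1.78 (adjusted p = 0.0374), and that fit links the series through HFD_cont replicate 1 alone. Over all 17604 genes the calls numbered 453 with the term and 2279 without it. Of the 7 members that lost their call, 4 had a larger change with the term, Lep at -2.10, Cidec at -1.21, Lpl at -1.06 and Car3 at -0.72. The other 3 had a smaller one, Acvr1c at -1.996, Retn at -1.09 and Plin1 at -0.97. For PMA in HFD mice 3 were called with that term and with the RHP libraries alone, 4 against 3, and those were Adipoq, Cidec and Lpl. Over all genes the calls numbered 1806 with the term and 1767 with the RHP libraries alone, against 2101 in the fit of all libraries without it. The members that lost their call kept close values, Cfd at -0.93 and Plin1 at -0.85 in both. The diet calls of Car3 and Cidec in untreated ears were lost with the term and among the RHS libraries alone, which hold 1 HFD_cont library. Their values were not smaller there, at -0.79 and -0.77 for Car3 and -0.95 and -0.93 for Cidec, and over all genes the calls numbered 179 and 234, against 691. Leaving out each of the 16 libraries in turn, the PMA calls in HFD mice held in 11 cases for Cfd, 8 for Cidec and 10 for Plin1, with adjusted p up to 0.108, 0.198 and 0.129. The diet calls in untreated ears held in 10 cases for Car3 and 11 for Cidec, with adjusted p up to 0.113 and 0.143. The PMA call of Car3 in ND mice held in 11 cases, with adjusted p up to 0.103.

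**Figure D3:**
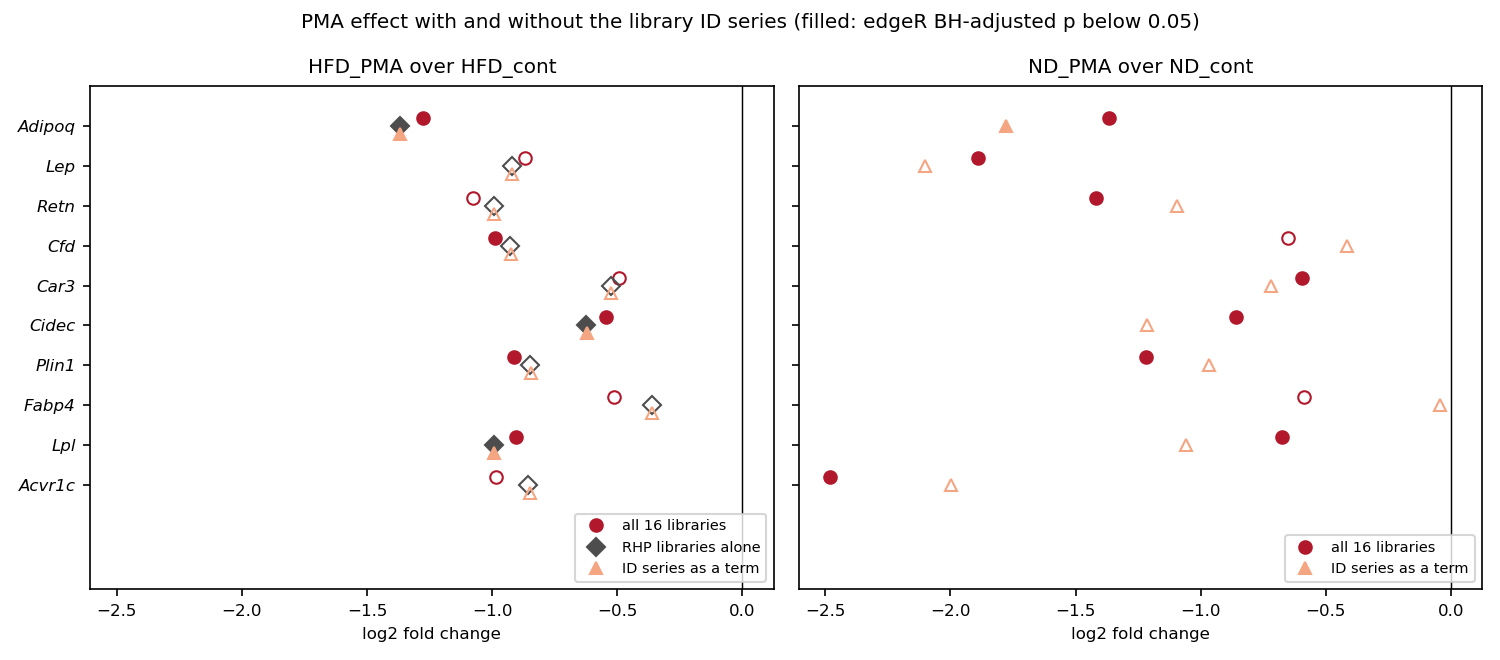
Log2 fold change of PMA over untreated for the 10 genes in HFD mice and in ND mice, from all 16 libraries, with the ID series as a term and, in HFD mice, from RHP libraries alone; filled symbols passed an adjusted p of 0.05. Adipoq is filled in all of them, and every value lies below 0.

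Levels per gene length put the members in a similar order in the 4 groups. For Fabp4 the length used, 4489 bases, equals its whole span on the genome, introns included. Its levels per length may thus be too low, and its place in the order is uncertain. Mean CPM per kilobase ran in ND_cont ears from 352.7 ± 47.6 for Car3 and 186.7 ± 30.1 for Cfd down to 5.97 ± 0.71 for Retn and 1.09 ± 0.24 for Acvr1c (SD, n = 4). From the top, Car3, Cfd, Cidec, Adipoq and Lpl came in this order in all groups. Neighbours whose means lay within their summed SDs were Cidec and Adipoq in both untreated groups, Car3 and Cfd as well as Adipoq and Lpl in ND_PMA ears, and most neighbours from Lep down to Retn. Lep followed Lpl in HFD_PMA and in both untreated groups, and came after Fabp4 and Plin1 in ND_PMA ears, a place shared within the spread with its neighbours.

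**Figure D4:**
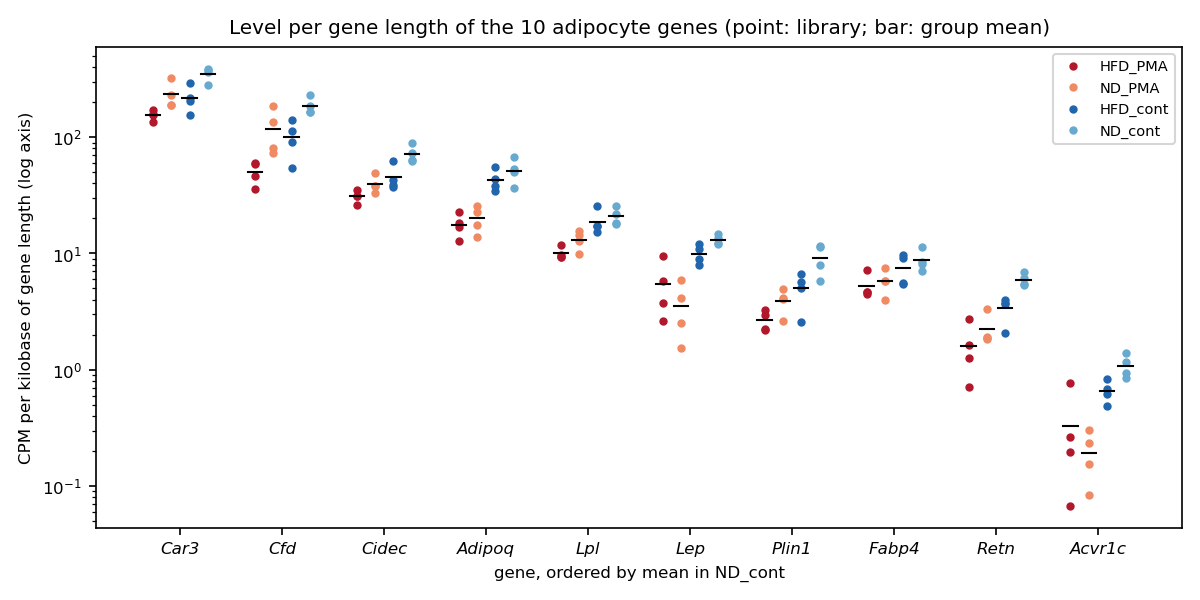
CPM per kilobase of gene length on a log axis for the 10 genes, with 4 points per group and a bar at the group mean. Car3 is highest in every group, between 154.7 and 352.7 on average, and Acvr1c lowest, between 0.193 and 1.09.

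Ratios within a library describe how members stood against each other. The log2 ratio of Fabp4 to Adipoq CPM averaged -0.06 ± 0.65 in HFD_PMA and -0.08 ± 0.14 in ND_PMA ears, against -0.85 ± 0.51 in HFD_cont and -0.86 ± 0.33 in ND_cont ears (SD, n = 4). For Car3 it was 4.2 ± 0.34 in HFD_PMA and 4.60 ± 0.32 in ND_PMA ears, against 3.39 ± 0.22 in HFD_cont and 3.85 ± 0.21 in ND_cont ears. The Car3 ratio of every PMA library was above those of the untreated libraries of the same diet. The Cfd to Adipoq ratio averaged 0.93 ± 0.49 in HFD_PMA and 1.92 ± 0.28 in ND_PMA ears, and 0.58 ± 0.51 in HFD_cont and 1.29 ± 0.33 in ND_cont ears. These ratios are given as descriptions.

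Other genes of the same pathways moved in part. Some stood far above Adipoq, such as Dgat2 at 984.0 CPM in ND_cont ears against 71.4. Which cells made these RNAs was not tested. Over all genes 4.6% fell and 7.34% rose with PMA in HFD mice, and 3.99% and 8.96% in ND mice. With diet 1.26% were lower and 0.943% higher in HFD after PMA, and 1.06% and 2.87% in untreated ears. A single call in a list is not read as a change of its pathway. Of 14 tested genes of lipid droplets and triglyceride synthesis, 2 fell with PMA in each diet and 0 rose, with list medians of -0.32 in HFD and -0.19 in ND mice. Plin4, another droplet coat gene, averaged 145.0 ± 39.7 CPM in HFD_PMA and 187.7 ± 38.7 in ND_PMA ears, against 243.9 ± 45.5 in HFD_cont and 329.8 ± 55.2 in ND_cont ears (SD, n = 4). Dgat2, which makes triglyceride from diglyceride, fell with log2 values of -0.45 ± 0.12 in HFD and -0.48 ± 0.12 in ND mice. Hilpda, an inhibitor of the lipase ATGL, ran the other way with diet. It averaged 25.5 ± 2.5 CPM in HFD_PMA against 12.5 ± 3.0 in ND_PMA ears, and 24.5 ± 4.0 CPM in HFD_cont against 13.9 ± 1.5 in ND_cont ears, and was called higher in HFD in both (log2 1.03 ± 0.20 and 0.82 ± 0.21, adjusted p = 0.0115 and 0.0273).

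Of 9 lipolysis genes, 2 fell with PMA in HFD mice and 3 in ND mice, and 0 rose. Pnpla2, the triglyceride lipase ATGL, fell in both, with log2 values of -0.74 ± 0.17 in HFD and -0.62 ± 0.17 in ND mice. Mgll, the monoglyceride lipase, fell in HFD mice (-1.07 ± 0.20). In ND mice Lipe, the hormone-sensitive lipase, fell (-0.58 ± 0.17), as did Pde3b, which breaks down cAMP under insulin (-0.91 ± 0.28). Of 9 genes of lipoprotein lipase partners and fatty acid uptake, 3 fell in each diet, and these were the transporter Slc27a4, the fatty acid receptor Cd36 and the lipoprotein receptor Vldlr. Their log2 values were -0.91, -0.72 and -0.68 in HFD mice, and -0.74, -0.65 and -0.82 in ND mice.

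Of 10 adipogenic transcription factors, Srebf1, a driver of lipid synthesis, fell with PMA in HFD mice (-0.49 ± 0.14) and in ND mice (-0.64 ± 0.14), and 0 rose. Cebpa was higher in HFD_cont than in ND_cont ears, at 95.5 ± 11.8 against 64.7 ± 9.0 CPM. Of 4 adipokine receptors, Cdh13, the T-cadherin that binds adiponectin, was lower after PMA in both diets and lower in HFD under both treatments, at 110.1 ± 9.2 CPM in HFD_PMA, 159.5 ± 17.0 in ND_PMA, 163.7 ± 8.9 in HFD_cont and 226.0 ± 19.5 in ND_cont ears. Lepr, the leptin receptor, fell with PMA in HFD mice (-1.14 ± 0.33). Of 6 genes of insulin response and glycerol supply, Irs1 fell with PMA in HFD mice and Insr in ND mice. Irs1 was also lower in HFD than in ND mice after PMA, and Gpd1, which supplies glycerol phosphate, was lower in HFD_cont than in ND_cont ears (log2 -0.92 ± 0.24).

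Of 9 tested ligands, co-receptors and Smads of ALK7, the related receptor Acvr1b fell with PMA in ND mice (-0.40 ± 0.13), and the list median was -0.15 in HFD and -0.33 in ND mice. Among 4 partners of factor D in the alternative complement pathway, 2 rose with PMA in HFD and 1 in ND mice. Of these Cfp, the properdin that stabilises its convertase, rose in both, by log2 1.16 ± 0.21 in HFD and 1.49 ± 0.21 in ND mice, so that it ran opposite to Cfd in HFD mice. Of 8 other adipokines, Sfrp5 fell with PMA in HFD mice and Metrnl was higher in HFD_cont than in ND_cont ears. The PMA values in ND mice and the diet values in untreated ears of all these lists carry the same difference in ID series.

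Markers of other skin cell types moved with the same groups. The shares of all genes given above stand beside the marker counts as well. Of 8 sebocyte markers 3 fell with PMA in HFD mice and 4 in ND mice, and their summed CPM was 1079 to 1696 in HFD_PMA and 1185 to 2000 in ND_PMA ears, against 2023 to 2963 in HFD_cont and 2134 to 3328 in ND_cont ears. Of 5 fibroblast markers 1 fell with PMA in HFD and 2 in ND mice. Summed CPM of the 5 keratinocyte markers was 25043 to 28108 in HFD_PMA, 19491 to 22826 in ND_PMA, 18924 to 23176 in HFD_cont and 12036 to 16242 in ND_cont ears, with 1 marker higher and 1 lower after PMA in HFD mice and 3 higher in ND mice. Sums of 6 neutrophil markers were 44.5 to 150.5 in HFD_PMA and 55.6 to 100.9 in ND_PMA ears, against 17.3 to 28.5 in HFD_cont and 8.51 to 12.4 in ND_cont ears, and of 4 tested 3 rose with PMA in HFD and 2 in ND mice.

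Of 6 macrophage markers 2 rose with PMA in HFD and 3 in ND mice, and the 7 endothelial markers had medians of -0.11 in HFD and -0.07 in ND mice. Of 4 tested cartilage genes 4 fell with PMA in HFD mice and 1 in ND mice. Ucp1, which defines brown adipocytes, had 12 counts over all 16 libraries, and of the other brown adipocyte markers Dio2 rose with PMA in ND mice. Of 7 adipocyte progenitor markers Cd34 fell and Ly6a rose with PMA in both diets, and Dpp4 rose in ND mice. The part of these other cell types in the values of the 10 genes and of the pathway genes above was not tested.

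**Figure D5:**
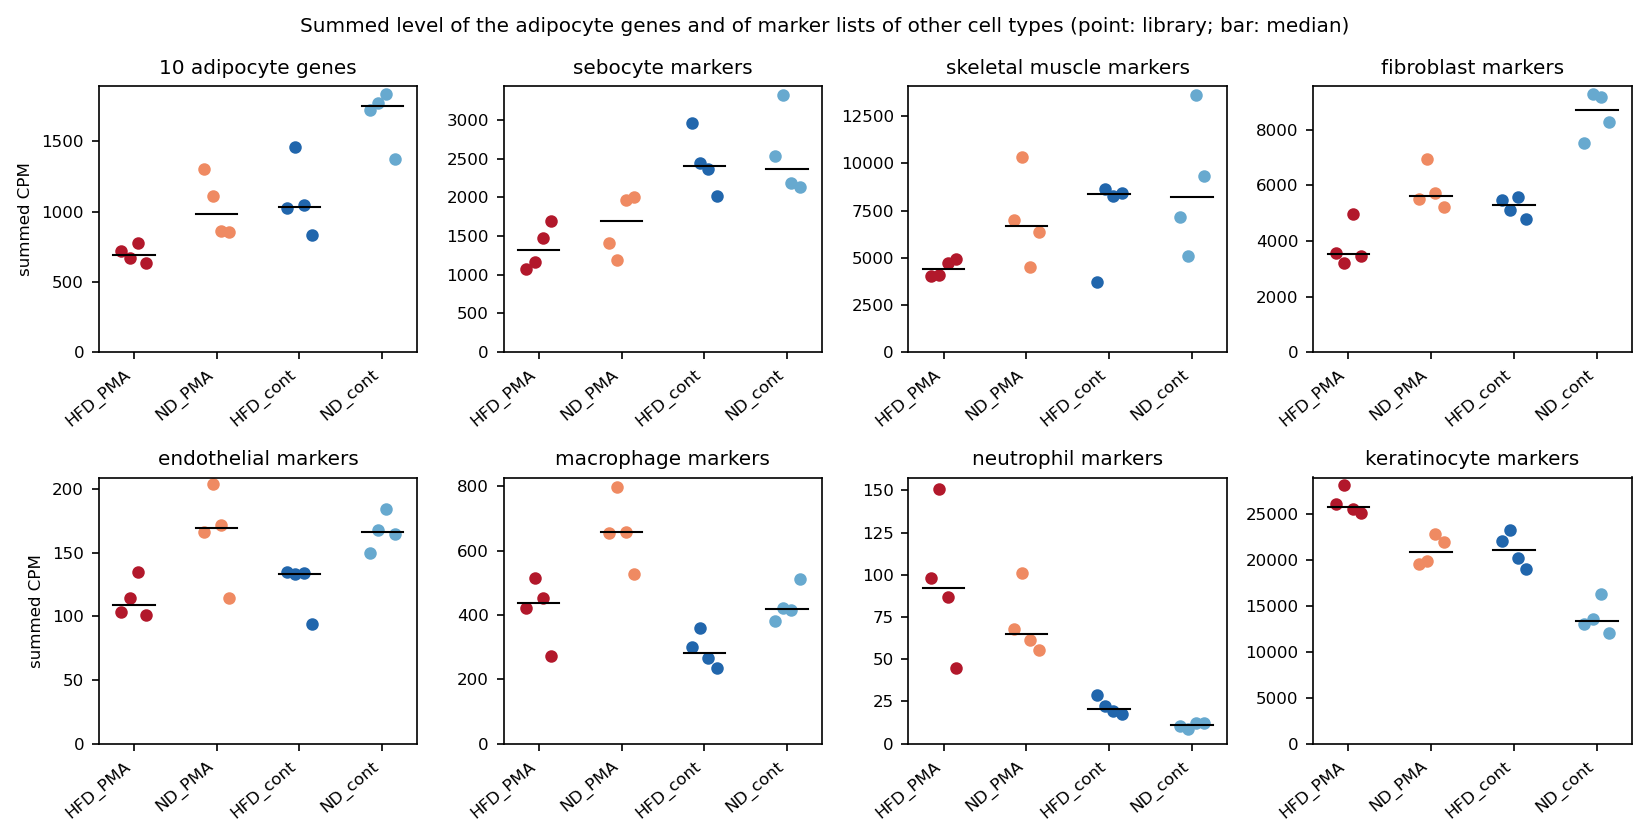
Summed CPM of the 10 adipocyte genes and of 7 marker lists of other cell types, with 1 point per library and a bar at the group median. The adipocyte genes sum to 634.9 to 775.7 CPM in HFD_PMA ears and 1372 to 1833 CPM in ND_cont ears, while keratinocyte markers are highest in HFD_PMA and lowest in ND_cont ears.

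The genes with the pattern most like the members were sought among 12395 genes with a mean of at least 5 CPM, by Pearson correlation of log2 CPM with the mean standardised level of the 10 members over the 16 libraries. The 8 most alike were Dpep1, Palm, Akap12, Thrsp, Cyp2f2, Stk10, Aldh2 and Htra1, with r between 0.905 and 0.917. With group means removed their r was 0.381 to 0.659. These libraries share group, ID series and make-up of the tissue, so the values are a description. Thrsp, known for its part in lipid synthesis, averaged 6.37 ± 2.50 CPM in HFD_PMA and 6.82 ± 1.72 in ND_PMA ears, against 12.8 ± 4.7 in HFD_cont and 20.3 ± 5.3 in ND_cont ears (SD, n = 4).

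Among the members themselves Plin1 ran closest to the mean of the other 9, with r = 0.933 over the 16 libraries, and Lep least closely, with r = 0.704. With group means removed, r was 0.83 for Cfd and 0.81 for Plin1, against 0.19 for Lpl and 0.083 for Acvr1c.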

How the data were processed

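Ear skin RNA was made into 16 libraries with SMART-Seq2 and Nextera XT from 2 ng of RNA, per the labels' protocols, which keeps no strand and has no molecular barcodes. Raw counts per gene and gene lengths in bases were deposited as 1 table. The submitters' processing notes name STAR 2.3, featureCounts 1.5 and the GRCm38 build. The table's ERCC rows number 0.

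Genes were kept with filterByExpr (minimum count 10, minimum total 15), which left 17604 of 48440. The counts were scaled by TMM and tested in edgeR 4.0.16 (limma 3.58.1, R 4.3.3) by quasi-likelihood with robust estimation, in 1 fit of 4 group means without covariates. P-values are two-sided and adjusted over all genes tested. SE is the absolute log2 fold change over the square root of F. CPM was computed on TMM-scaled totals, with a prior count of 2 where logged. Depth was 7739487 to 15571389 counts a library, and errors do not separate PCR duplicates from molecules. On simulated data for PMA in ND mice, 17604 genes and 3 simulations, 19.9% of 1.5-fold, 63.7% of 2-fold and 98.5% of 4-fold changes were recovered. The simulations changed only a small set of genes with a mean of at least 5 CPM. They held no difference in ID series, so these rates may not apply to the real comparison.

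Groups came from the diet and treatment labels. The members and the 19 other gene lists were chosen with earlier results of these data known. Named genes were all 10 members, up to 3 called genes per other list and comparison (mean of at least 5 CPM) ranked by absolute log2 fold change, of which the text gives a part, and the 8 genes with the most similar pattern. Alternatives were DESeq2 1.42.0, other scaling, other filters, a replicate block, the ID series as a term, RHP libraries alone, only the 8 libraries compared, and each library left out. RHS libraries alone was added after seeing the data. Gene positions were taken by ID from GENCODE M21 (GRCm38), and promoter windows are RefSeq on GRCm38.p6.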

Additional observations from a re-analysis of the deposited data

Results flagged for a closer look

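In 4 of 40 sets of 4 libraries, 1 library stood apart from the other 3 by Dixon's test at the 95% level, which chance alone passes in about 1 of 20 sets. Retn was 5.24 CPM in ND_PMA replicate 4, against 2.90 to 3.02 CPM in the other ND_PMA libraries. Retn was 3.26 CPM in HFD_cont replicate 4, against 5.81 to 6.30 CPM in the other HFD_cont libraries. Fabp4 was 32.4 CPM in HFD_PMA replicate 1, against 19.9 to 20.8 CPM in the others. Lpl was 175.6 CPM in HFD_cont replicate 2, against 104.4 to 116.5 CPM in the others.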

How the results depend on the processing

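The called decreases with PMA of Adipoq and Lpl in HFD mice and of Adipoq in ND mice held under all 16 omissions of a library and every other setting tried. For PMA in ND mice 8 members were called under DESeq2, both other scalings, both other filters and the 8 libraries alone, 1 with the ID series as a term, and 7 to 10 without 1 library, highest without ND_PMA replicate 2. Car3 was lost there without ND_PMA replicate 3 or 4 or ND_cont replicate 1, 2 or 3. For PMA in HFD mice the count was 7 with DESeq2, 6 with the stricter filter, 6 with only the 8 libraries compared, 5 with both other scalings, 4 without a low-count filter, 3 with the ID series as a term and 3 with RHP libraries alone, and 2 to 5 without 1 library, lowest without HFD_PMA replicate 2 or HFD_cont replicate 2 (2 each) and 3 without HFD_PMA replicate 4 or HFD_cont replicate 1 or 3. For the diet effect after PMA the count was 2 with DESeq2 and 0 without a low-count filter, with RHP libraries alone and with only the 8 libraries compared, and 0 to 1 without 1 library. For the diet effect in untreated ears it was 0 with the ID series as a term and 0 with RHS libraries alone, and 0 to 3 without 1 library, being 0 without HFD_cont replicate 1, 3 or 4 or ND_cont replicate 1 or 3 and 1 without ND_cont replicate 2. The interaction had 0 calls under every setting. The causes of these shifts were not tested.

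Some values that had not passed changed sign. Fabp4 in untreated ears had a diet effect of 0.17 with the ID series as a term and 0.18 with RHS libraries alone. With that term the interaction was -0.32 for Fabp4 and 0.065 for Lpl. The diet effect after PMA was -0.0546 for Acvr1c without HFD_PMA replicate 3, against 0.775 with all libraries, and without ND_PMA replicate 2 it was 0.017 for Adipoq and 0.0459 for Fabp4. Without 1 library its values ran from -0.0546 to 1.12 for Acvr1c, from -0.315 to 0.017 for Adipoq and from -0.296 to 0.0459 for Fabp4. The interaction ran from -0.0123 to 0.591 for Retn, from -0.0865 to 0.264 for Fabp4, from -0.0463 to 0.271 for Adipoq, from -0.529 to 0.00298 for Cfd and from -0.0117 to 0.294 for Car3.

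Replicate numbers were not taken as pairs. Same-numbered deviations correlated at -0.067 to 0.202 and did not all exceed 0.1 in any comparison, which does not exclude pairing. For PMA in HFD mice all were positive, at 0.202, 0.0138, 0.116 and 0.0791. Of 8 libraries, 5 correlated best with their own number for PMA in HFD mice, 4 for PMA in ND mice, 2 for the diet effect after PMA and 0 in untreated ears. With a replicate block 2 members were called for the diet effect after PMA, 3 in untreated ears, 5 for PMA in HFD mice, 8 in ND mice and 0 for the interaction. For PMA in HFD mice the block lost Cidec (adjusted p = 0.0738) and gained Car3 (adjusted p = 0.042), and the calls gained with diet were Car3 after PMA (adjusted p = 0.0476) and Cfd in untreated ears (adjusted p = 0.0391).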
